A study of Mus musculus with 8 samples.

Results

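The genes described here are the 37 mitochondrially encoded genes of the mouse, taken as every gene of the count table whose symbol starts with mt-, out of 54532 in all. They comprise 13 genes for mRNAs, 2 for rRNAs and 22 for tRNAs, and the 3 classes were treated apart. All 13 mRNAs and both rRNAs had counts, whereas of the tRNAs only mt-Tp did. The other 21 tRNA genes were at 0 in all 8 libraries, which allows up to 3 counts for each of them in each library.

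Poly(A) RNA from dorsal root ganglia of levels L3 to L5, which hold the cell bodies of sensory neurons, was sequenced from C57BL/6 mice. All animals had monosodium iodoacetate (MIA) injected into a joint, which is used to model osteoarthritis. The MIA_Acu group then received manual acupuncture at the point ST36 each day for 7 days, and the MIA group had none. There were 4 libraries in each group, MIA_Acu 1, 2, 3 and 5 against MIA 1, 2, 4 and 5, while the submitters describe 3 groups of 3 mice. The sources used here do not state age, sex or any pooling of animals, and a group without MIA was not analysed here.

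The columns MIA_Acu 3 and MIA 4 carry numbers that no sample title of their group has, since the titles list a number 4 for MIA_Acu and a number 3 for MIA. Each was placed in the group that its column name gives. The main differences are also given for the 6 libraries with matched numbers (1, 2 and 5 in each group) or with the groups of these 2 libraries exchanged.

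The mitochondrial genome encodes core subunits of respiratory complexes I, III and IV and of ATP synthase, the machinery that turns electron transport into ATP, together with the rRNAs and tRNAs that translate them inside the organelle. Both strands are transcribed as long precursors, which are cut at the tRNAs that lie between the genes, and mRNAs then receive A tails. Several mouse mRNAs end on an incomplete stop codon that polyadenylation completes. The rRNAs carry only short A tails and tRNAs no stable ones, so poly(A) selection captures these classes in part, and their counts do not measure their full level. Sensory neurons, with long axons to supply, hold many mitochondria.

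In the GENCODE M21 transcripts (mouse build GRCm38, mitochondrial chromosome) the lengths of mt-Co3, mt-Nd4 and mt-Cytb are not multiples of 3. The last 30 bases of these mRNAs are shown, 5′ to 3′, with the stop codon or its remaining base in capitals, beside mt-Co1, which ends on a complete stop codon, since these ends show why an A tail belongs to the coding sequence of a mitochondrial mRNA.
mt-Co3: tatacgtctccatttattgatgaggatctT
mt-Nd4: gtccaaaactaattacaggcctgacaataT
mt-Cytb: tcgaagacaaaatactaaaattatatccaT
mt-Co1: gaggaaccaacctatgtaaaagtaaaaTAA

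A stretch of the mitochondrial genome from the end of mt-Co1 to within mt-Nd4 has near-identical copies in the nuclear genome, which bears on what the counts of its genes mean. In GRCm38, 7 unprocessed pseudogenes on chromosome 1 matched mitochondrial mRNAs at 99% identity or more over at least 100 bases. They lie in the same order as their mitochondrial counterparts over 4663 bases. The copies of mt-Co2 (Gm28661, 681 bases), mt-Atp6 (Gm10925, 678 bases), mt-Co3 (Gm28437, 783 bases) and mt-Nd4l (Gm10222, 294 bases) were identical over all but the last 1 to 3 bases of the gene. Gm28439 was identical to the first 876 of the 1378 bases of mt-Nd4. Gm29216 matched the last 483 bases of mt-Co1 with 1 substitution, A1066T, and Gm28438 matched 345 bases of mt-Nd3 with 1 substitution, T3C, where positions count from the first base of the mitochondrial gene, whose base is given first. Both differences are shown in capitals with the bases that follow them, since these are the places where a read can be told apart.
mt-Co1: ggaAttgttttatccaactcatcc
Gm29216: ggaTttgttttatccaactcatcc
mt-Nd3: atTaacctgtacactgttatctt
Gm28438: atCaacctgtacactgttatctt

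mt-Atp8, which encodes a small subunit of ATP synthase, lies inside the same stretch. None of its transcript outside its 43-base overlap with mt-Atp6, in capitals, falls in an annotated near-identical copy. It is shown whole, since its counts varied most between libraries.
mt-Atp8: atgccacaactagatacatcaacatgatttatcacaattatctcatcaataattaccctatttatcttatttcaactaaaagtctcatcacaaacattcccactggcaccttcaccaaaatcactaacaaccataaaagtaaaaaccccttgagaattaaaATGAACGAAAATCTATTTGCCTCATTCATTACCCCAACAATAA

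Library totals were 32892804 to 40627041 counts. Sensory neuron markers were abundant in all libraries, and none of their 12 genes was at 0. The libraries nevertheless differed in tissue markers along with the groups. The summed level of the 12 neuronal markers was 13381 to 15314 CPM (counts scaled to library size, with TMM factors) in MIA_Acu and 15563 to 20162 CPM in MIA, with no overlap and 0 of 12 genes higher in MIA_Acu. All 12 myelinating Schwann cell markers were higher in MIA_Acu, with sums of 21121 to 39997 CPM in MIA_Acu and 7061 to 25363 CPM in MIA. The sums of endothelial markers (316 to 421 CPM in MIA_Acu, 220 to 271 CPM in MIA), mural cell markers (403 to 563 CPM in MIA_Acu, 314 to 402 CPM in MIA) and fibroblast markers (2175 to 5731 CPM in MIA_Acu, 605 to 1840 CPM in MIA) did not overlap either, and all 9, 8 and 8 genes were higher in MIA_Acu. None of these markers was at 0. MIA_Acu 1 stood apart in long RNAs kept in the nucleus, with 1628 CPM over 5 genes against 3595 to 4066 CPM in the other libraries of both groups. The part of these differences in the results was not tested. In bulk tissue, a change in the number of cells of a type cannot be told apart from a change in RNA per cell.

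Mitochondrial mRNAs held a larger share of all counts in MIA_Acu than in MIA. The 13 mRNAs together made up 4.05, 4.07, 5.27 and 3.62% of counts in MIA_Acu 1, 2, 3 and 5, against 3.28, 3.17, 3.26 and 3.14% in MIA 1, 2, 4 and 5. All 4 MIA_Acu libraries lay above all 4 MIA libraries, with MIA_Acu 3 far above the rest and the MIA libraries close together. The means were 4.25 ± 0.709% in MIA_Acu and 3.21 ± 0.0704% in MIA (SD, n = 4 each), a difference of 1.04 percentage points. Counting error was small beside this, with 95% Wilson intervals of at most ± 0.00730 points. Of these shares no test was made, because the genes were chosen with earlier results known.

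The 2 rRNAs showed the larger relative difference. mt-Rnr1 and mt-Rnr2, the RNAs of the small and large subunit of the mitochondrial ribosome, held 0.140, 0.163, 0.163 and 0.198% of counts in MIA_Acu 1, 2, 3 and 5, against 0.0886, 0.0731, 0.125 and 0.0989% in MIA 1, 2, 4 and 5. The groups did not overlap, with MIA_Acu 5 highest and MIA 2 lowest. The means were 0.166 ± 0.0240% in MIA_Acu and 0.0965 ± 0.0220% in MIA (SD, n = 4 each), a ratio of 1.72, against 1.32 for the mRNAs. The rRNA counts per 100 mRNA counts were 3.44, 4.0, 3.09 and 5.46 in MIA_Acu and 2.70, 2.31, 3.85 and 3.15 in MIA. Over 8 libraries these ratios overlapped through MIA_Acu 3 and MIA 4. In the 6 matched libraries they did not overlap, at 4.30 ± 1.04 in MIA_Acu and 2.72 ± 0.421 in MIA (SD, n = 3 each).

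**Figure D1:**
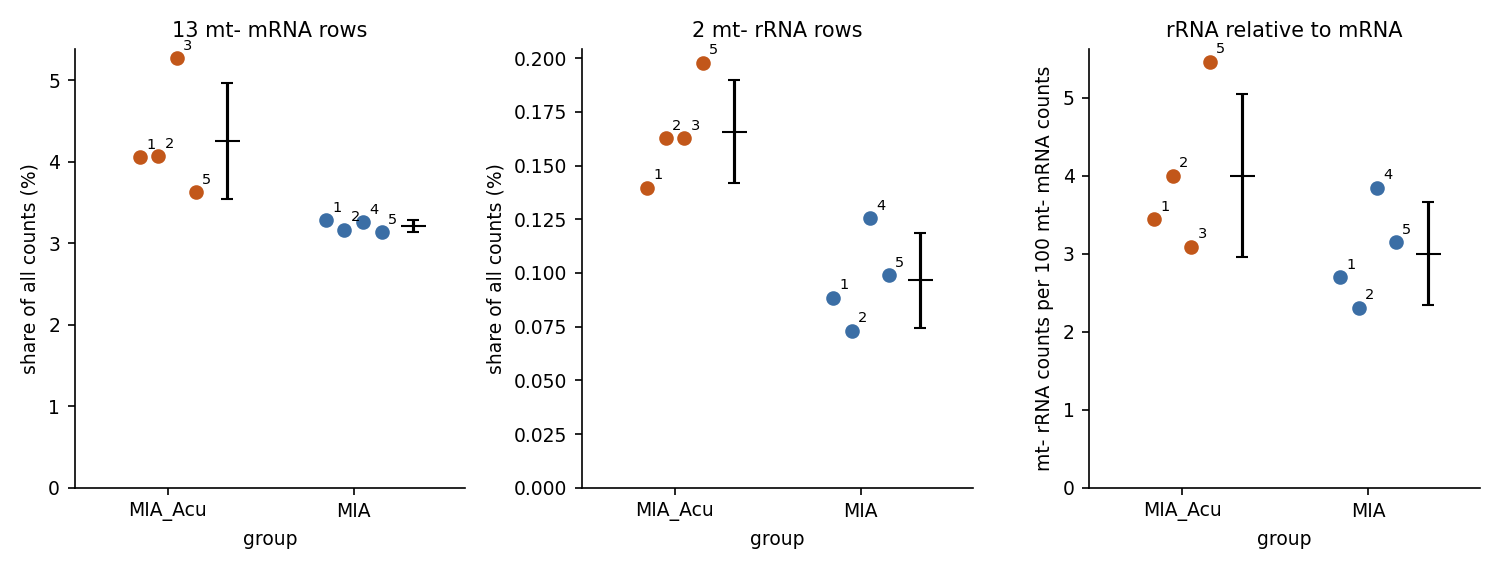
Share of all counts held by the 13 mitochondrial mRNAs (left) and the 2 rRNAs (middle), in percent, and rRNA counts per 100 mRNA counts (right), by group with MIA_Acu left of MIA. Each point is a library with its number, and the bars give the mean and SD of 4 libraries. The mRNA and rRNA shares do not overlap between groups, while the ratio of rRNA to mRNA overlaps through MIA_Acu 3 and MIA 4.

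Leaving out the 2 libraries with unmatched numbers kept the groups apart, whereas exchanging their groups did not. In the 6 matched libraries the mRNA share was still higher in MIA_Acu in every library, by 0.721 points between the means. With the groups of MIA_Acu 3 and MIA 4 exchanged, the difference was 0.0379 points. The rRNA share differed by 0.0799 points in the 6 matched libraries and by 0.0505 points after the exchange. The exchange thus took away nearly all of the mRNA difference and left most of the rRNA difference.

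Gene by gene, all 16 mitochondrial genes with counts were estimated higher in MIA_Acu, but none passed the test over 8 libraries. edgeR's quasi-likelihood test called 0 of 18971 genes (0%) at an adjusted p under 0.05, with a smallest adjusted p of 0.0881. At an unadjusted p under 0.05 it listed 4137 genes. At an adjusted p under 0.05, limma voom called 0 genes and DESeq2 called 1748. The median log2 fold change of the 16 genes was 0.41, against 0.02 for all genes tested, of which 52.9% were higher in MIA_Acu. An unadjusted p under 0.05 with a higher value in MIA_Acu was found for 12 of the 16 genes, against 11.2% of all genes tested. The CPM values of 7 of the 16, mt-Rnr1, mt-Rnr2, mt-Nd1, mt-Nd2, mt-Co1, mt-Nd4 and mt-Cytb, lay higher in MIA_Acu without overlap, against 4.95% of all genes tested. Since mitochondrial transcripts come from shared precursors and libraries, the 16 genes are not independent of each other. The p-values measure the spread between libraries, since which animal gave which library is not labelled.

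In the 6 libraries with matched numbers, all 16 genes were again estimated higher in MIA_Acu. edgeR called 4 of them higher at an adjusted p under 0.05, both rRNAs, mt-Nd4 and mt-Nd2, against 6.22% of all genes tested. DESeq2 over 8 libraries called 8 of the 16 higher, against 4.42% of all genes: both rRNAs, mt-Nd1, mt-Nd2, mt-Co1, mt-Nd4, mt-Nd6 and mt-Cytb. Leaving out MIA 4 alone took edgeR's count to 1340 of 19228 genes tested, 677 of them higher in MIA_Acu and 663 lower. Among the higher genes were 3 of the 16, mt-Rnr1, mt-Rnr2 and mt-Nd3. Leaving out MIA_Acu 3 alone, or any other single library, gave 0 calls.

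**Figure D2:**
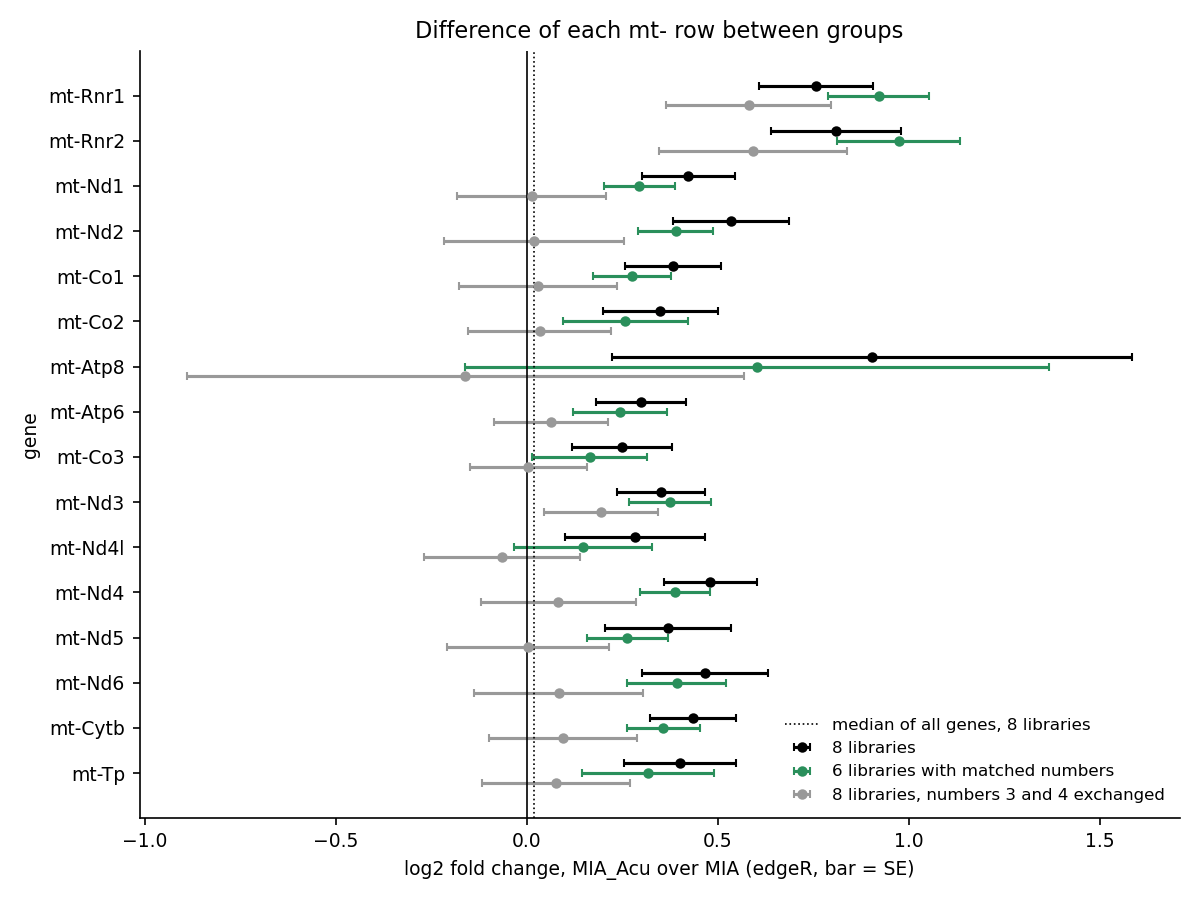
Log2 fold change of each mitochondrial gene with counts, MIA_Acu over MIA, with SE, from edgeR in 8 libraries, in the 6 libraries with matched numbers, and in 8 libraries with the groups of the libraries numbered 3 and 4 exchanged. All 16 genes are above 0 in the first 2 fits, while after the exchange the 2 rRNAs stay near 0.6 and the other genes lie between -0.16 and 0.19.

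mt-Rnr1, the RNA of the small ribosomal subunit, had 571, 603, 590 and 732 CPM in MIA_Acu 1, 2, 3 and 5 and 345, 285, 475 and 373 CPM in MIA 1, 2, 4 and 5. The log2 fold change was 0.76 ± 0.15 (SE) with an adjusted p of 0.0881 over 8 libraries (edgeR), and 0.92 ± 0.13 with an adjusted p of 0.0185 in the 6 matched libraries. MIA 4 was the highest MIA library, and without it the adjusted p was 0.0324. Leaving out any other single library kept mt-Rnr1 above the threshold. The 6 matched libraries also lack MIA 4, so the 2 results are not separate.

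mt-Rnr2, the RNA of the large subunit, had 883, 1009, 1004 and 1262 CPM in MIA_Acu and 542, 443, 772 and 615 CPM in MIA. Its log2 fold change was 0.81 ± 0.17 (SE), adjusted p = 0.0881 by edgeR over 8 libraries, and 0.97 ± 0.16, adjusted p = 0.0187, over the 6 matched libraries. When MIA_Acu 3 and MIA 4 traded groups, mt-Rnr1 and mt-Rnr2 had log2 fold changes of 0.58 and 0.59, with adjusted p of 0.203 and 0.246 by edgeR. There were 60.3 ± 2.98 mt-Rnr1 counts per 100 mt-Rnr2 counts in MIA_Acu and 62.5 ± 1.68 in MIA (SD, n = 4 each), so the proportion of the 2 rRNAs overlapped between groups.

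Within MIA, the order of the rRNA levels (MIA 2 lowest, then MIA 1, MIA 5 and MIA 4) was also the order of the summed Schwann cell markers, 7061, 14697, 16082 and 25363 CPM. In MIA_Acu 1, 2 and 5 the order was likewise shared, with Schwann sums of 36355, 37988 and 39997 CPM and rRNA shares of 0.140, 0.163 and 0.198%. MIA_Acu 3 departed from it, with a sum of 21121 CPM and an rRNA share of 0.163%, against 25363 CPM and 0.125% in MIA 4. Other markers shared 1 of these orders. Fibroblast markers had the same order within MIA, at 605, 1392, 1589 and 1840 CPM, but not in MIA_Acu 1, 2 and 5. Markers of spinal cord oligodendrocytes and astrocytes had it in MIA_Acu 1, 2 and 5, at 18.2, 239 and 253 CPM, but not within MIA. The part of Schwann cells or of these other cells in the rRNA difference was not tested. 

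Complex I, the entry point of electrons from NADH, has 7 mitochondrially encoded subunits. mt-Nd4 had 2993, 2766, 3755 and 2691 CPM in MIA_Acu 1, 2, 3 and 5 and 2234, 1964, 2326 and 2227 CPM in MIA 1, 2, 4 and 5. The groups did not overlap. Its log2 fold change was 0.48 ± 0.12 (SE; edgeR, adjusted p = 0.101) over 8 libraries and 0.39 ± 0.09 (adjusted p = 0.0351) over the 6 matched libraries. When the fit of these 6 also included the library number as a block, mt-Nd4 did not pass the threshold.

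mt-Nd2 had 2954, 2581, 4127 and 2701 CPM in MIA_Acu and 2221, 1883, 2279 and 2151 CPM in MIA, again without overlap and with MIA_Acu 3 highest. The log2 fold change was 0.53 ± 0.15 (SE; edgeR, adjusted p = 0.117) over 8 libraries and 0.39 ± 0.10 (adjusted p = 0.0431) over the 6 matched libraries. With the library number as a block, mt-Nd2 did not pass the threshold in these 6 either. mt-Nd1 had 4711, 4626, 5979 and 4203 CPM in MIA_Acu and 3931, 3525, 3571 and 3536 CPM in MIA, without overlap, at a log2 fold change of 0.42 (adjusted p = 0.120 by edgeR).

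mt-Nd5 and mt-Nd6 overlapped between groups over 8 libraries. mt-Nd5 had 3757, 3071, 5054 and 3199 CPM in MIA_Acu and 2986, 2708, 3358 and 2620 CPM in MIA, with MIA 4 above 2 of the MIA_Acu libraries, at a log2 fold change of 0.37 ± 0.17 (SE; edgeR, adjusted p = 0.230). It was 0.19 without MIA_Acu 3, and in the 6 matched libraries mt-Nd5 did not overlap, at 0.26 ± 0.11 (SE; adjusted p = 0.149). mt-Nd6 averaged 761 ± 170 CPM in MIA_Acu and 550 ± 85.4 CPM in MIA (SD, n = 4 each), at a log2 fold change of 0.47 (adjusted p = 0.158 by edgeR), which was 0.31 without MIA_Acu 3. mt-Nd6 is the only mitochondrial mRNA encoded on the other strand, where it neighbours mt-Nd5. The sources used here do not state a strand setting, so the reads of mt-Nd6 may include antisense RNA of the same place. There were 20.2 ± 1.22 mt-Nd6 counts per 100 mt-Nd5 counts in MIA_Acu and 18.8 ± 1.05 in MIA (SD, n = 4 each), with overlap.

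mt-Cytb, the mitochondrial subunit of complex III, had 7766, 7856, 9092 and 6719 CPM in MIA_Acu and 5833, 5725, 5897 and 5808 CPM in MIA. Its values in MIA were close together, and all lay below those in MIA_Acu. Its log2 fold change was 0.43 ± 0.11 (SE; edgeR, adjusted p = 0.102) over 8 libraries and 0.36 ± 0.10 over the 6 matched libraries, with an adjusted p of 0.0506, just above the threshold.

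mt-Co1, the catalytic subunit of complex IV, was the most abundant mitochondrial transcript. It had 18922, 18452, 22167 and 16041 CPM in MIA_Acu and 14752, 14879, 14046 and 14312 CPM in MIA, with no overlap between groups. Its log2 fold change was 0.38 ± 0.13 (SE; edgeR, adjusted p = 0.143) over 8 libraries and 0.27 ± 0.10 (adjusted p = 0.124) over the 6 matched libraries.

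mt-Co2 and mt-Co3, the other mitochondrial subunits of complex IV, and mt-Atp6, a membrane subunit of ATP synthase, overlapped between groups. mt-Co2 averaged 132 ± 24.3 CPM in MIA_Acu and 104 ± 16 CPM in MIA, and mt-Co3 97.6 ± 13.04 CPM in MIA_Acu and 82.2 ± 13.3 CPM in MIA (SD, n = 4 each). mt-Atp6 averaged 71.2 ± 10.2 CPM in MIA_Acu and 57.9 ± 6.56 CPM in MIA. The log2 fold changes were 0.35 for mt-Co2, 0.25 for mt-Co3 and 0.30 for mt-Atp6, with adjusted p of 0.217, 0.299 and 0.188 by edgeR. The complex I subunits mt-Nd3, at 24.9 ± 2.22 CPM in MIA_Acu and 19.6 ± 2.83 CPM in MIA, and mt-Nd4l, at 14.8 ± 3.77 CPM in MIA_Acu and 12.1 ± 1.58 CPM in MIA, overlapped as well, at log2 fold changes of 0.35 (adjusted p = 0.141 by edgeR) and 0.28 (adjusted p = 0.394 by edgeR). Without MIA_Acu 3 the log2 fold change of mt-Nd4l was 0.12. In the 6 matched libraries mt-Nd3 did not overlap between groups, at 0.37 ± 0.11 (SE; adjusted p = 0.0631 by edgeR).

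mt-Atp8 was the most variable mitochondrial gene. It had 19.5, 24.9, 37.8 and 1.70 CPM in MIA_Acu 1, 2, 3 and 5 and 11.5, 14.1, 14.6 and 4.60 CPM in MIA 1, 2, 4 and 5. The library numbered 5 was lowest in both groups, and the groups overlapped through it. The log2 fold change of 0.90 ± 0.68 (SE; edgeR, adjusted p = 0.472) was therefore poorly determined. It was 1.29 without MIA_Acu 5 and 0.45 without MIA_Acu 3.

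mt-Tp, the tRNA for proline, had 36.2, 29.1, 38.1 and 31.5 CPM in MIA_Acu and 30.4, 28.1, 24.9 and 18.8 CPM in MIA. The groups overlapped, and its log2 fold change was 0.40 ± 0.15 (SE; edgeR, adjusted p = 0.168). It is encoded on the other strand than most genes, at the end of the gene order beside mt-Tt. As for mt-Nd6, its reads may include antisense RNA of the same place, since no strand setting is stated. Its share of counts was 0.00336 ± 0.000422% in MIA_Acu and 0.00256 ± 0.000500% in MIA (SD, n = 4 each).

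Per length, the mitochondrial mRNAs fell into a high and a low set that followed position in the genome and not respiratory complex. As CPM per kb of transcript, over the mean of 8 libraries, the order of levels was mt-Co1 (10807), mt-Cytb (5976), mt-Nd1 (4452), mt-Nd2 (2516), mt-Nd4 (1901), mt-Nd5 (1833) and mt-Nd6 (1263). Then came mt-Rnr1 (520), mt-Rnr2 (516) and mt-Tp (442), and last mt-Co2 (172), mt-Co3 (115), mt-Atp6 (94.7), mt-Atp8 (79.0), mt-Nd3 (63.9) and mt-Nd4l (45.3). These levels divide by the whole transcript. If the counts of mt-Co1 and mt-Nd4, which are copied in part, are divided only by the bases outside the copy, mt-Co1 is at 15721 and mt-Nd4 at 5218 CPM per kb, which puts mt-Nd4 above mt-Nd1 and mt-Nd2. Between neighbours in the whole-transcript order the library ranges did not overlap only for mt-Co1 over mt-Cytb, mt-Nd6 over mt-Rnr1 and mt-Tp over mt-Co2. The gap between the high and the low set was present in both groups: mt-Nd6 averaged 1466 ± 328 CPM per kb in MIA_Acu and 1061 ± 165 in MIA, and mt-Co2 193 ± 35.5 in MIA_Acu and 152 ± 23.4 in MIA (SD, n = 4 each).

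The 6 low mRNAs are those that lie in the stretch copied on chromosome 1, and together they held 0.866% of mitochondrial mRNA counts. The lowest of the other 7 mRNAs was 7.33 times as high per kb as the highest of these 6. mt-Co1, mt-Co2 and mt-Co3, whose products join the same enzyme, fell on both sides of the gap, with mt-Co1 at 12230 ± 1631 CPM per kb in MIA_Acu and 9383 ± 250 in MIA and mt-Co3 at 125 ± 16.6 in MIA_Acu and 105 ± 17 in MIA (SD, n = 4 each). The sources used here do not state how reads that match several places were treated, so the levels of these 6 mRNAs are uncertain, as are those of mt-Co1 and mt-Nd4, of which 31.3% and 63.6% lie in a copy. mt-Atp8 was as low as its neighbours, and only its overlap with mt-Atp6 lies in an annotated copy. The 7 copies keep the mitochondrial spacing to within 1 base, also across the place of mt-Atp8. Whether the rest of mt-Atp8 is copied there was not tested.

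**Figure D3:**
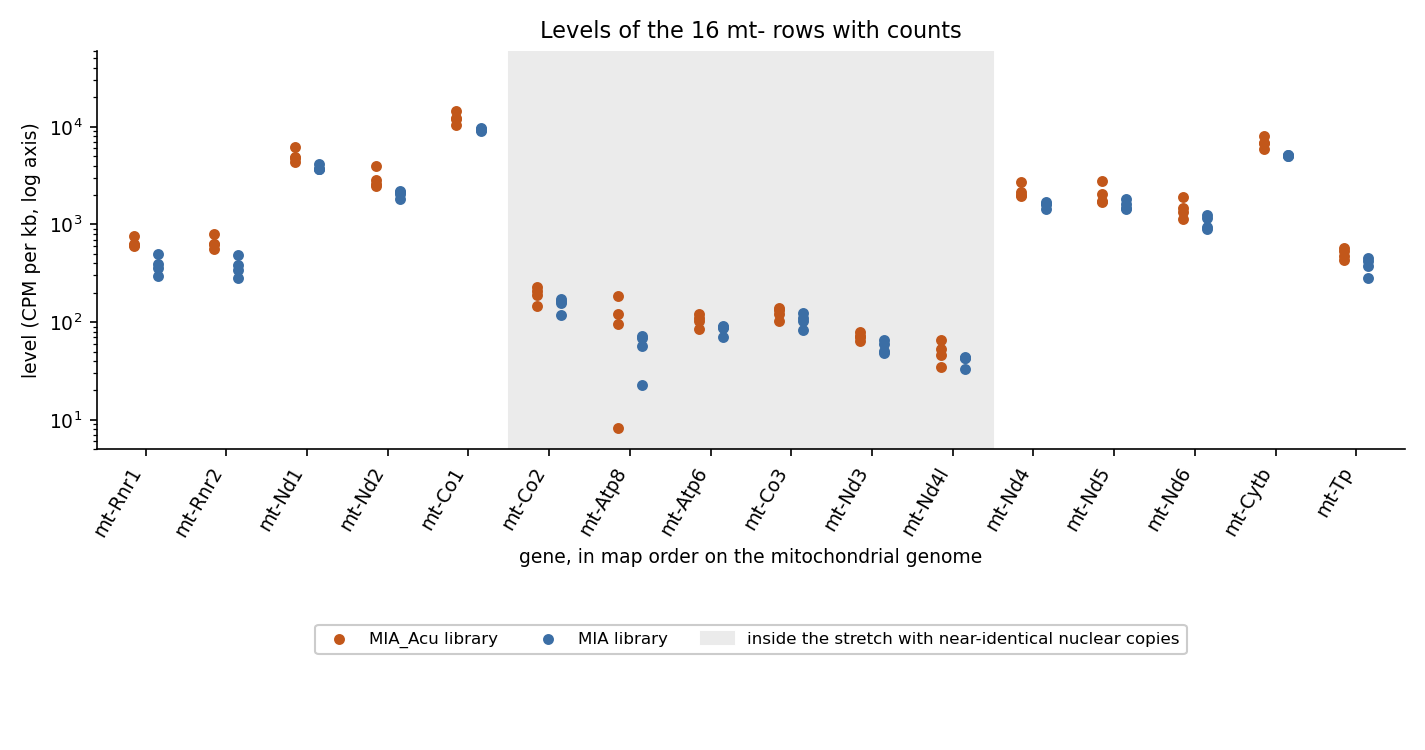
CPM per kb of transcript (log axis) of the 16 mitochondrial genes with counts, in map order on the mitochondrial genome, with each library as a point and MIA_Acu left of MIA for each gene. The shaded genes, mt-Co2 to mt-Nd4l, lie in the stretch with near-identical nuclear copies and average 45.3 to 172 CPM per kb, below the other 7 mRNAs at 1263 to 10807.

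The nuclear copies were given counts of their own in the table. A read inside an identical copy cannot be told apart from a read of the mitochondrial gene. Whether these counts come from the nuclear or the mitochondrial genome was not tested. Per 100 counts of the mitochondrial gene, the copy had 179 for mt-Atp6, 86.1 for mt-Nd4l, 79.6 for mt-Co3, 74.9 for mt-Co2 and 23.8 for mt-Nd3, but 1.58 for mt-Nd4 and 0.252 for mt-Co1, which are copied in part. Gm10925, the copy of mt-Atp6, had 113, 141, 169 and 93.9 CPM in MIA_Acu 1, 2, 3 and 5 and 115, 101, 108 and 81.7 CPM in MIA 1, 2, 4 and 5, with overlap. All 7 copies were estimated higher in MIA_Acu, at log2 fold changes of 0.24 to 0.43. None passed edgeR's test over 8 libraries, which called 0 of all genes tested. Together they held 0.0418 ± 0.00968% of counts in MIA_Acu and 0.0334 ± 0.00476% in MIA (SD, n = 4 each). Adding their counts to the mitochondrial genes did not bring the low set near the high one: mt-Atp6 with Gm10925 reached 264 CPM per kb and mt-Co2 with Gm28661 reached 301. The log2 fold changes after adding were 0.33 for mt-Atp6 and 0.30 for mt-Co2.

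Relative to mt-Co1, the genes of the copied stretch also differed between libraries of the same group. mt-Atp8 had 1.03, 1.35, 1.70 and 0.106 counts per 1000 mt-Co1 counts in MIA_Acu 1, 2, 3 and 5, and 0.782, 0.949, 1.04 and 0.321 in MIA 1, 2, 4 and 5. mt-Co2 had 6.22 and mt-Atp6 3.61 in MIA_Acu 5, and 5.63 and 3.36 in MIA 5, the lowest value of each group for both genes. The other genes followed this in 1 group each. mt-Nd3 and mt-Co3 were lowest of their group in MIA 5, at 1.17 and 4.56, but not in MIA_Acu 5, at 1.40 and 5.02. mt-Nd4l was lowest of its group in MIA_Acu 5, at 0.645, and highest in MIA 5, at 0.918. With both libraries numbered 5 left out, the groups of mt-Atp8 gave a log2 fold change of 1.03 ± 0.24 (SE), at an adjusted p of 0.408 by edgeR.

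**Figure D4:**
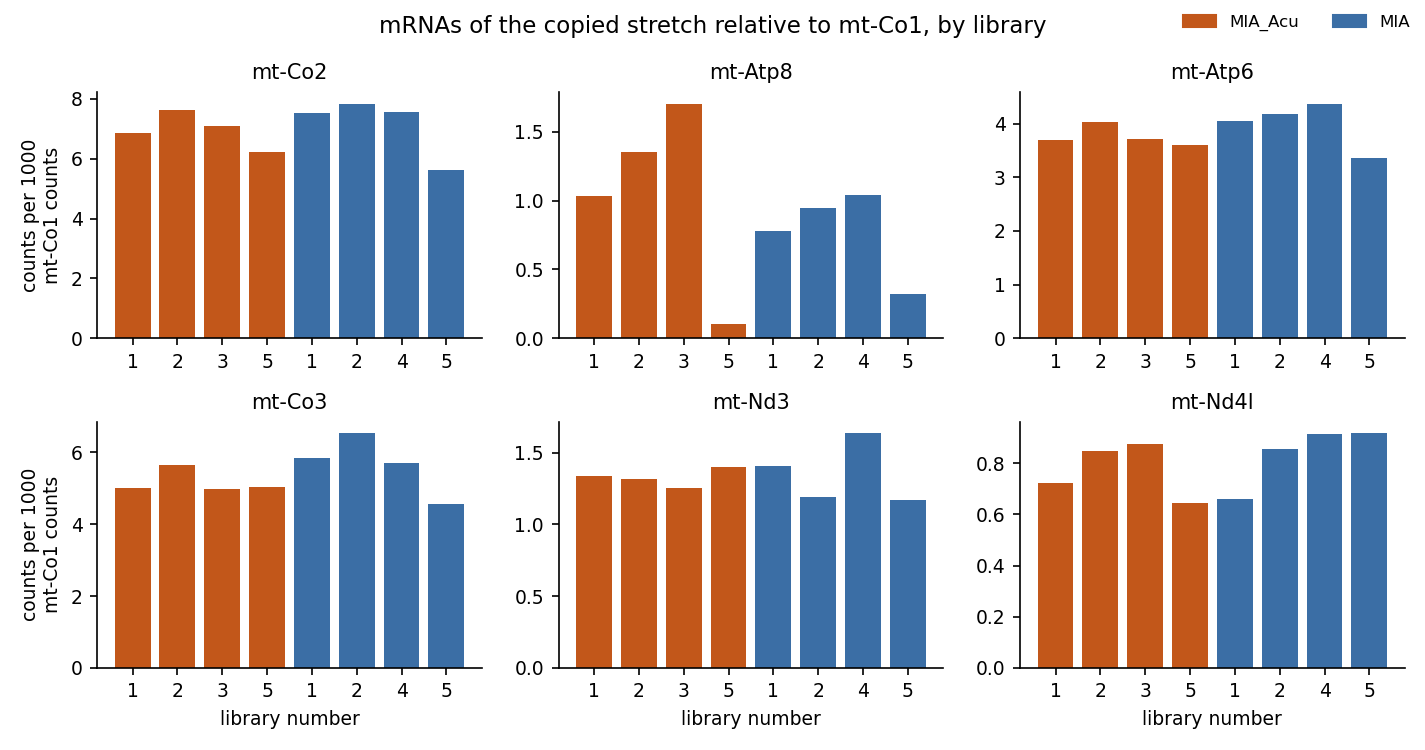
Counts per 1000 mt-Co1 counts of the 6 mRNAs in the copied stretch, with 1 bar for each library and MIA_Acu left of MIA. mt-Atp8 is at 0.106 in MIA_Acu 5 and 0.321 in MIA 5, while the other libraries lie between 0.782 and 1.70.

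Inside the mitochondrial mRNA pool the composition overlapped between groups for all 13 mRNAs. mt-Co1 made up 44.4 ± 1.20% of mitochondrial mRNA counts in MIA_Acu and 45.3 ± 1.63% in MIA (SD, n = 4 each). mt-Cytb made up 18.5 ± 0.766% in MIA_Acu and 18.2 ± 0.316% in MIA, and mt-Nd1 11.4 ± 0.189% in MIA_Acu and 11.4 ± 0.415% in MIA. By enzyme, complex I mRNAs held 36.4% in MIA_Acu and 35.8% in MIA, complex IV mRNAs 44.9% in MIA_Acu and 45.9% in MIA, and ATP synthase mRNAs 0.214% in MIA_Acu and 0.215% in MIA. Of the 13 shares, 6 averaged higher in MIA_Acu. The summed mRNA share thus separated the groups, and the shares of the 13 mRNAs within it did not, nor did they in the 6 matched libraries. Per 1000 mt-Co1 counts, mt-Cytb alone did not overlap in these 6, at 418 ± 7.70 in MIA_Acu and 395 ± 10.5 in MIA (SD, n = 3 each). Over 8 libraries this ratio of mt-Cytb overlapped, at 410 to 426 in MIA_Acu and 385 to 420 in MIA. The share of all genes without overlap in the 6 libraries was not determined.

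Nuclear genes of the same organelle did not show a shift of this size. The 74 tested nuclear-encoded subunits of complexes I, III and IV and ATP synthase had a median log2 fold change of 0.03, with 48 higher in MIA_Acu. Of the 74, 7 were higher without overlap, against 4.95% of all genes tested. In the 6 matched libraries edgeR called 0 of them higher at an adjusted p under 0.05, against 6.22% of all genes tested. By enzyme, 22 of 36 complex I, 7 of 9 complex III, 8 of 13 complex IV and 11 of 16 ATP synthase subunits were higher in MIA_Acu, with medians of 0.02, 0.06, 0.03 and 0.03. In the 6 matched libraries these medians were -0.017, 0.018, -0.0016 and 0.013. The complex I subunit Ndufa5 had the smallest unadjusted p, at a log2 fold change of 0.25 ± 0.06 (SE; edgeR, adjusted p = 0.101). Uqcrb of complex III was at 0.21 ± 0.07 (adjusted p = 0.135).

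The largest estimates among these subunits were in complex IV, for Cox7a1 at 1.12 ± 0.53 (SE; edgeR, adjusted p = 0.248) and for Cox6a2 at 1.30 ± 0.95 (adjusted p = 0.456), the forms of 2 subunits found in heart and skeletal muscle. Cox6a2 was named after its values were seen. Cox7a1 had 4.22, 1.96, 10.6 and 5.59 CPM in MIA_Acu and 3.71, 0.913, 3.40 and 2.26 CPM in MIA, highest in MIA_Acu 3 and lowest in MIA 2. The summed level of 14 skeletal muscle markers was likewise highest in MIA_Acu 3, at 7643 CPM, and lowest in MIA 2, at 49.6 CPM. It ranged from 501 to 7643 CPM in MIA_Acu and from 49.6 to 4666 CPM in MIA. All 13 tested markers were higher in MIA_Acu, and none passed edgeR's test, which called 0 of all genes tested. MIA_Acu 3 also had the highest mitochondrial mRNA share. In that library bone and cartilage markers summed to 528 CPM, against 10.8 to 55.4 CPM in the other MIA_Acu libraries and 9.56 to 36.9 CPM in MIA. Erythroid and marrow markers summed to 1761 CPM there, against 365 to 719 CPM in the other MIA_Acu libraries and 754 to 1126 CPM in MIA. All 5 tested bone and cartilage markers, 6 of 10 marrow markers and 9 of 9 macrophage markers were higher in MIA_Acu, with macrophage sums of 88.7 to 161 CPM in MIA_Acu and 62.2 to 105 CPM in MIA. MIA_Acu 2, with the lowest muscle sum of its group at 501 CPM, had a mitochondrial mRNA share of 4.07%, while MIA 1, with 4666 CPM, had 3.28%. Markers of spinal cord oligodendrocytes and astrocytes, however, summed to 239 CPM in MIA_Acu 2 and 253 CPM in MIA_Acu 5. They were at 18.2 and 45.8 CPM in MIA_Acu 1 and 3 and at 18.8 to 79.3 CPM in MIA, with all 5 tested genes higher in MIA_Acu. The part of RNA from these tissues in the mitochondrial difference was not tested.

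**Figure D5:**
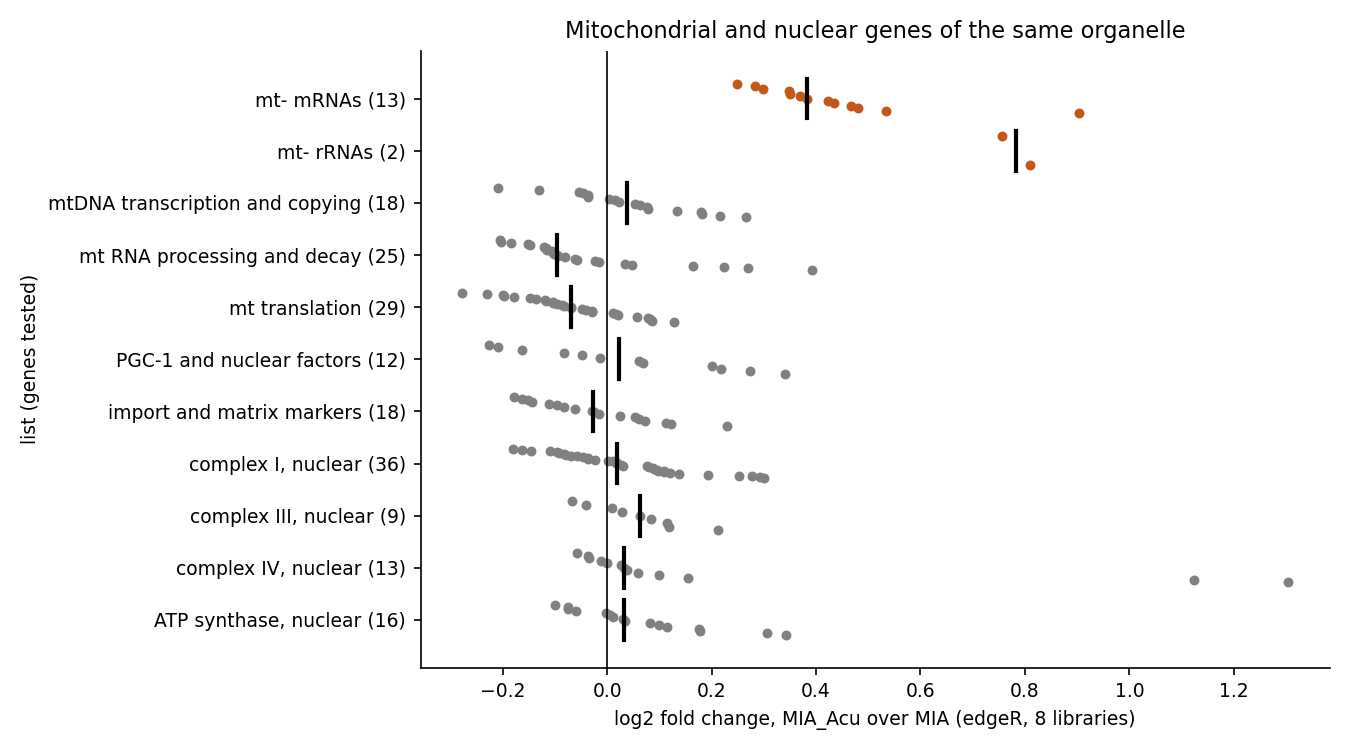
Log2 fold change of mitochondrial mRNAs and rRNAs (top) and of the tested genes of 9 nuclear lists, MIA_Acu over MIA, from edgeR in 8 libraries, with the median of each list as a black line. The mitochondrial genes lie between 0.25 and 0.90, whereas the medians of the nuclear lists lie between -0.10 and 0.06. Single nuclear genes also fall inside the mitochondrial range, such as Mrm3 at 0.39, or above it, such as Cox7a1 at 1.12.

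Genes that copy, transcribe, process and translate mitochondrial RNA did not pass the test over 8 libraries, like all other genes tested. Of 18 genes for transcription and copying of mitochondrial DNA, 12 were higher in MIA_Acu and the median log2 fold change was 0.04. Tfam, the factor that packages mitochondrial DNA and starts its transcription, had 31.8, 27.5, 29.4 and 31.8 CPM in MIA_Acu and 27.1, 28.6, 27.8 and 26.4 CPM in MIA, at 0.13 ± 0.07 (SE; edgeR, adjusted p = 0.312). The helicase gene Twnk was at 0.18 (adjusted p = 0.310) and the exonuclease gene Mgme1 at 0.27 (adjusted p = 0.258).

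Of 25 genes for processing, polyadenylation and decay of mitochondrial RNA, 6 were higher in MIA_Acu and 19 lower, with a median of -0.10. Hsd17b10, a subunit of the RNase P that cuts the precursor at tRNAs, rose in the 6 matched libraries, at a log2 fold change of 0.45 (edgeR, adjusted p = 0.0211), and was at 0.27 (adjusted p = 0.252) over 8 libraries. Lrpprc, which stabilizes mitochondrial mRNAs and their A tails, had 89.0, 79.0, 89.3 and 87.6 CPM in MIA_Acu and 100.5, 105, 92.0 and 99.1 CPM in MIA. These values did not overlap and were lower in MIA_Acu, at -0.20 ± 0.07 (SE; edgeR, adjusted p = 0.141). Mrm3, which methylates the large mitochondrial rRNA, was at 0.39 ± 0.11 (adjusted p = 0.120), and Elac2, which cuts the other end of tRNAs, at -0.18 (adjusted p = 0.185).

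Factors and aminoacyl-tRNA synthetases of mitochondrial translation were higher in MIA_Acu for 9 of 29 genes, with a median of -0.07; the recycling factor gene Mrrf was at -0.20 (adjusted p = 0.146 by edgeR). Of 12 coactivators and nuclear factors of mitochondrial biogenesis, 6 were higher, with a median of 0.02. Sirt1, a deacetylase that acts on the coactivator PGC-1alpha, had 31.9, 32.8, 28.7 and 33.1 CPM in MIA_Acu and 25.0, 23.8, 26.8 and 24.3 CPM in MIA, without overlap. It rose in the 6 matched libraries, at a log2 fold change of 0.41 (edgeR, adjusted p = 0.0201), and was at 0.34 ± 0.08 (SE; adjusted p = 0.0881) over 8 libraries. Ppargc1a itself, which encodes PGC-1alpha, was at -0.16 (adjusted p = 0.381).

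Of 18 outer membrane, import and matrix genes that mark mitochondrial content, 7 were higher in MIA_Acu, with a median of -0.03. Vdac2, a pore of the outer membrane, rose in the 6 matched libraries, at 0.32 (edgeR, adjusted p = 0.0363). Over 8 libraries Vdac2 was at 0.23 (edgeR, adjusted p = 0.188), and its values overlapped between groups. Cs, the citrate synthase often used as a measure of mitochondrial mass, was at -0.16 ± 0.08 (SE; edgeR, adjusted p = 0.239). Over all 176 nuclear genes of these lists, 88 were higher in MIA_Acu and the median was 0.0002. In the 6 matched libraries edgeR called 3 of them higher, Hsd17b10, Sirt1 and Vdac2, against 6.22% of all genes, and 0 lower.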

How the data were processed

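The authors deposited whole-number counts per Ensembl gene for 8 libraries in 1 table. Per the labels' protocols, RNA was extracted with TRIzol and poly(A) libraries were prepared with NEBNext Ultra chemistry. The submitters' processing notes list FastQC and Trimmomatic, with GRCm39 (mm39) as the genome build. Aligner, counting tool, strand setting and treatment of multiple matches: not given in the sources used here.

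Groups were tested over the whole table with edgeR 4.0.16 (quasi-likelihood test, filterByExpr with a minimum count of 10 and a minimum total of 15, TMM, Benjamini-Hochberg adjustment) in R 4.3.3. The alternatives used DESeq2 1.42.0 and limma 3.58.1. The biological coefficient of variation was 22.9%. No 2 libraries of a group agreed within sampling noise (chi-square per degree of freedom of at least 17.9). Intervals cover counting error only, as reads carried no molecular identifiers.

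Transcripts came from GENCODE M21 (GRCm38), which is another build than the files', so no coordinates are given. Copies were found with BLAST 2.17.0. All mRNAs and rRNAs are named, and from each nuclear list up to 3 genes per direction with the smallest p. The genes, lists and tests were chosen with earlier results of these data known.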

Additional observations from a re-analysis of the deposited data

Results flagged for a closer look

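In 2 of 66 groups of 4 values tested for a library far from the others (Dixon's test), MIA 1 stood apart, and chance alone flags about 1 in 20 groups. For mt-Nd1, MIA 1 had 3931 CPM, while the other MIA libraries had 3525 to 3571 CPM, and it still lay below the lowest MIA_Acu library at 4203 CPM. For mt-Nd4l, MIA 1 had 9.77 CPM, while the other MIA libraries had 12.7 to 13.1 CPM.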

How the results depend on the processing

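The count of genes called over the whole table depended on the method and the libraries. It was 0 by edgeR over 8 libraries, 6 with no filter on low counts, 1748 by DESeq2, 1963 in the 6 libraries with matched numbers and 207 with the libraries numbered 3 and 4 exchanged, and it ranged from 0 to 1340 when each library was left out in turn. It stayed 0 with DESeq2's size factors, TMM without the mitochondrial genes, library size alone, a stricter filter and limma voom. Adding the nuclear copies and leaving out both libraries numbered 5 were chosen after seeing the data, and each also gave 0. The cause of these differences was not tested.

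With the number as a replicate block, the 6 matched libraries gave 1486 calls. Both rRNAs stayed past the threshold (adjusted p = 0.0230, edgeR), while mt-Nd4 (0.0861) and mt-Nd2 (0.0783) did not. Deviations of libraries with the same number correlated at 0.0678 (number 1), 0.267 (number 2) and 0.156 (number 5). Each MIA_Acu library correlated best with the MIA library of its own number. The largest correlations with another number were -0.0104, -0.0838 and 0.140. The labels do not say what libraries with the same number have in common.

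All 16 mitochondrial genes were higher in MIA_Acu under every alternative except the exchange, under which mt-Atp8 (-0.16) and mt-Nd4l (-0.066) were lower and the mRNA and tRNA shares differed by 0.0379 and 0.000101 points. Leaving out each library in turn gave differences of 0.704 to 1.25 points for the mRNA share, 0.0586 to 0.0789 for the rRNA share and 0.000570 to 0.000952 for the tRNA share, and 5 to 7 mRNAs with a larger part of the mRNA pool in MIA_Acu. With 4 libraries a group, or 3 in the matched set, the spread between libraries and not depth limits these comparisons.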
